A study of Mus musculus with 4 samples.

Results

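The genes described here encode 8 inhibitors of NF-kB signalling: Nfkbia, Nfkbib, Nfkbie, Nfkbiz, Tnfaip3, Tnip1, Tnip2 and Cyld. They were taken as all probe sets of the array whose only annotated gene symbol was one of these names, which gave 20 of 45101 probe sets, for 8 of 18194 genes. Back skin RNA was hybridised to 4 Affymetrix arrays, of which 2 held wild type and 2 held K5-IKKbeta transgenic skin. All mice were males of 32 days on a C57BL6 X DBA2 background, and each array held RNA pooled from 3 mice of its genotype. The transgene carries the IKKbeta gene under regulatory elements of keratin K5, a keratin of the basal layer of epidermis and of hair follicles. The labels name no founder line and no form of the kinase. The comparison asks how the inhibitors of the pathway stood in skin whose keratinocytes carry extra IKKbeta.

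NF-kB dimers are held inactive in the cytoplasm by the IkB proteins, which mask the dimers through ankyrin repeats. The IKK complex, of which IKKbeta is a catalytic subunit, phosphorylates IkB proteins and so marks them for degradation, which frees NF-kB to enter the nucleus. Several inhibitors are themselves known NF-kB target genes, so that the pathway makes its own brakes: Nfkbia (IkB-alpha) and Nfkbie (IkB-epsilon) bind the dimers again, and Tnfaip3 (A20) edits the ubiquitin chains that carry the signal to IKK. Tnip1 and Tnip2 (ABIN-1 and ABIN-2) are ubiquitin-binding partners of A20, and Cyld cleaves ubiquitin chains of receptor complexes. Nfkbib (IkB-beta) is a cytoplasmic IkB protein, whereas Nfkbiz (IkB-zeta) works in the nucleus, where it can also activate some NF-kB targets.

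Promoter sequences are shown first because several of these genes are known NF-kB targets. RefSeq promoter windows (build GRCm38.p6, 250 bases before to 50 bases after a transcript start, 300 bases in all) were found for 7 of the 8 genes, in 8 windows, and none was found for Nfkbiz. They were searched on both strands for the kappaB consensus, a decamer that reads GGG, a purine, any base, A or T, pyrimidines in the next positions and CC at the end. It was present in a window of 5 of the 7 genes, against 5.14% of all 27025 genes with a window (4.51% of all 32851 windows of that length). The stretches that hold a match follow, 5′ to 3′ on the strand of the gene, with matched bases in capitals. For Nfkbie (chr17:45555450-45555699, plus strand), Nfkbia (chr12:55492648-55492897, minus strand) and Tnfaip3 (chr10:19015411-19015660, minus strand) they are the 250 bases before the start. For Tnip1 (chr11:54962957-54963190, minus strand) they are the 234 bases that lie outside the longest annotated transcript, and for Cyld (chr8:88696863-88696892, plus strand) 30 bases around the match.
Nfkbie: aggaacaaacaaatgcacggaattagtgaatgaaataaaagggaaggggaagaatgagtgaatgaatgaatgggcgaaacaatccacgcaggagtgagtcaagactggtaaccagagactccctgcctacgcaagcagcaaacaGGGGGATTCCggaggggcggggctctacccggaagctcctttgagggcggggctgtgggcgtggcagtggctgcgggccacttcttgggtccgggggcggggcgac
Nfkbia: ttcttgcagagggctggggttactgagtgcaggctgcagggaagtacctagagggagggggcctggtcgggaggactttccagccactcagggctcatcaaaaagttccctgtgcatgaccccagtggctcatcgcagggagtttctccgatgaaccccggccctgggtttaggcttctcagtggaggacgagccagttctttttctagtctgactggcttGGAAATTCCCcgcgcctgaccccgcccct
Tnfaip3: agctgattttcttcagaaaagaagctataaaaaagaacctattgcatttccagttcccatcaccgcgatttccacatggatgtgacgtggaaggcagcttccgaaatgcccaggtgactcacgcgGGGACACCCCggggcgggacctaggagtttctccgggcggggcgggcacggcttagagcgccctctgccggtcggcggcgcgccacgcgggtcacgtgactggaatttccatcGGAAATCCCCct
Tnip1: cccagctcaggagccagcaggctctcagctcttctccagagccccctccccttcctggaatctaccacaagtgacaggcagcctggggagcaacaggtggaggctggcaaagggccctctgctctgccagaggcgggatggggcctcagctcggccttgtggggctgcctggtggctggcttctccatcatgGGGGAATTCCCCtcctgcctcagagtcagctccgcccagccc
Cyld: ttgaccgagcGGAAAGTCCCttcagccagc

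Nfkbie and Nfkbia held 1 match each, GGGGGATTCC on the strand of the gene and GGAAATTCCC on the opposite strand. Tnfaip3 held 2, GGGACACCCC and GGAAATCCCC, in 1 of its 2 windows, and none in the other. In Tnip1, 4 overlapping matches on both strands fell in 1 palindromic stretch of 12 bases, GGGGAATTCCCC. The match of Cyld, GGAAAGTCCC on the opposite strand, lay at least partly within its longest annotated transcript. The windows of Nfkbib and Tnip2 held no match, which says only that these letters are not in these 300 bases. A match describes the sequence and is no measured binding site.

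**Figure D1:**
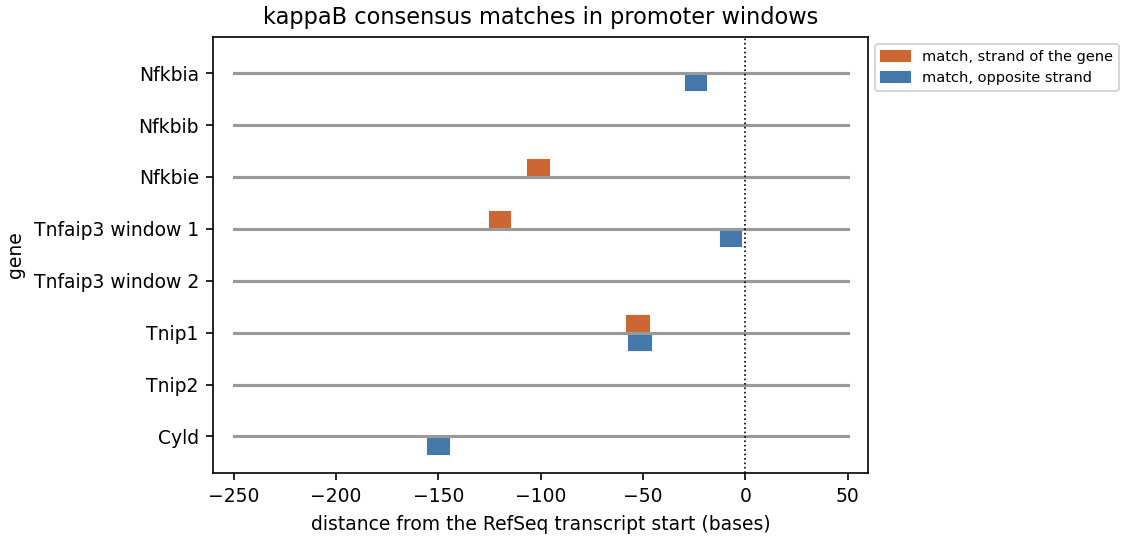
Positions of kappaB consensus matches in the RefSeq promoter windows of 7 genes. The x axis is the distance in bases from the transcript start (dotted line), grey lines are the windows, and boxes are matches on the strand of the gene (orange) or the opposite strand (blue). Of the 8 windows 5 hold a match, all before the start.

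Values are log2 RMA expression throughout, and changes are log2 fold changes, K5-IKKbeta minus wild type, with 95% confidence intervals from limma. Adjusted p-values are limma's, after Benjamini-Hochberg adjustment over all 45101 probe sets, with a threshold of 0.05. Array medians ran from 6.91 to 6.96, and Pearson's correlation over all probe sets, which are no independent replicates, was 0.996 between the wild type pools, 0.994 between the K5-IKKbeta pools and 0.965 to 0.969 across genotypes. Of 5 probe sets of Ikbkb, the gene carried by the transgene, 3 were higher in K5-IKKbeta skin, with 1454184_a_at at 6.50 and 6.54 in wild type and 8.77 and 8.74 in K5-IKKbeta pools. As markers of the labelled tissue, the basal keratins Krt5 and Krt14 stood between 13.00 and 13.81 on all arrays. Where the probes lie relative to the transgene's sequence was not analysed here. P-values rest on the spread of pools, so how far mice of a genotype vary is not visible.

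The inhibitors were mostly higher in K5-IKKbeta skin. Of the 20 probe sets, 15 rose and none fell, where 10.4% of all probe sets were called higher, 5.88% lower and 16.3% in either direction. None was lower at an unadjusted limma p under 0.05 either, where 18 were higher; of all probe sets 17.4% were higher and 11.7% lower by that measure. By the brightest probe set of each gene, 7 of 8 genes rose (all but Nfkbib), where 14.3% of all genes were called higher. The K5-IKKbeta arrays lay wholly above the wild type arrays for 18 of the 20 probe sets, as they did for 30.3% of all. The median log2 fold change was 0.88 over the 20 probe sets and 0.00 over all probe sets, and by the brightest probe set it was 1.12 over the 8 genes and 0.03 over all genes. Both member medians are the same with Nfkbie, whose wild type readings were near background, at its lower bound. Without wild type pool 1, 11 probe sets and 4 genes were still called, since Nfkbiz, Cyld and Tnip2 then missed the threshold by their brightest probe set. With no moderation of the variances across probe sets, none of the 20 passed.

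**Figure D2:**
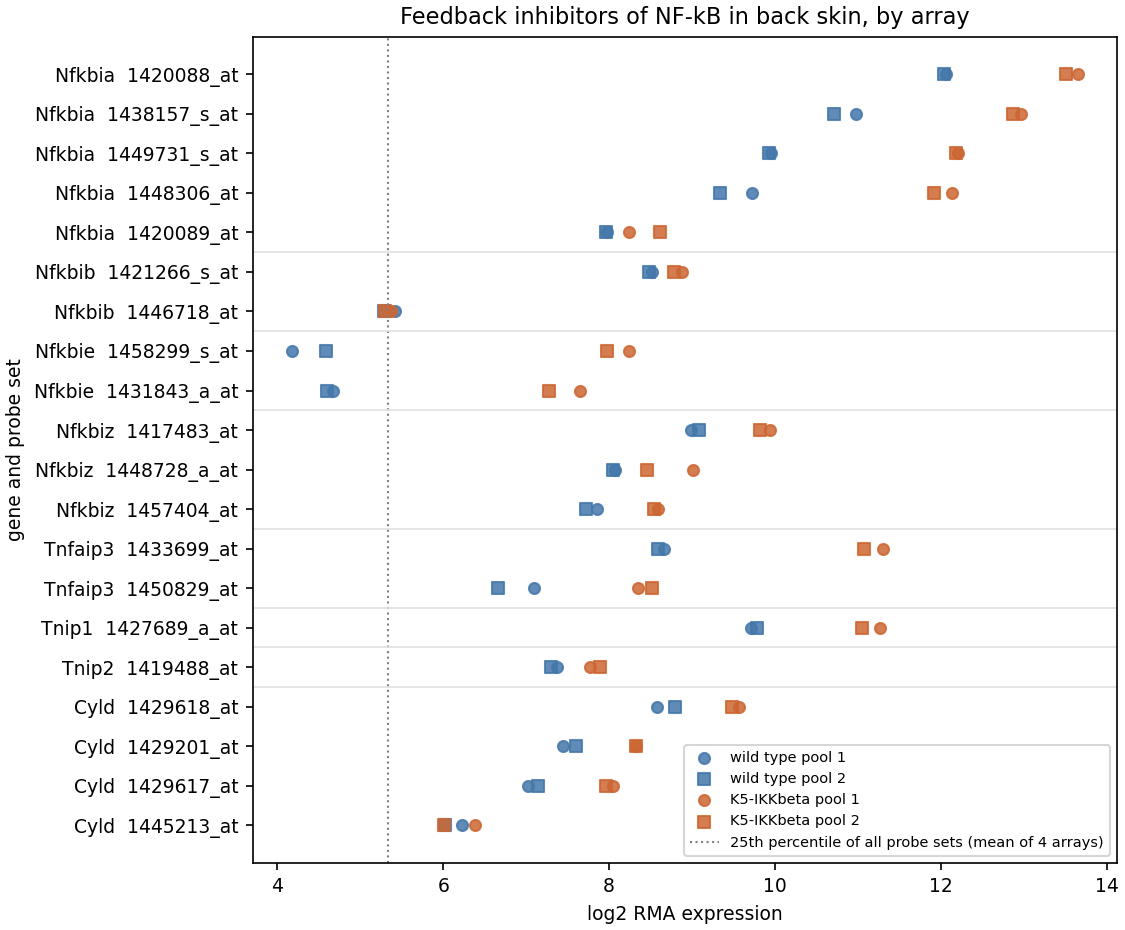
Expression of the 20 probe sets on each array. The x axis is log2 RMA expression, each row is a probe set, blue marks are the 2 wild type pools, orange marks the 2 K5-IKKbeta pools, and the dotted line is the 25th percentile of all probe sets averaged over the 4 arrays. Marks of the genotypes overlap only for Nfkbib 1446718_at and Cyld 1445213_at, and the wild type marks of Nfkbie lie left of the line.

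Among the cytoplasmic IkB genes, Nfkbie went from near background to a mid-range level. Its probe set 1458299_s_at read 4.18 and 4.58 in the wild type pools and 8.24 and 7.97 in the K5-IKKbeta pools. The second probe set, 1431843_a_at, read 4.68 and 4.60 in wild type and 7.64 and 7.27 in K5-IKKbeta skin. All wild type readings lay below the 25th percentile of their arrays, so the rise has only a lower bound. Taken against that percentile (5.35 as the wild type mean), Nfkbie was at least 6.77-fold higher by the first probe set and at least 4.33-fold by the second. The fitted log2 fold changes were 3.72 (95% confidence interval 3.31 to 4.13, adjusted p = 9.0e-05) and 2.82 (2.46 to 3.18, adjusted p = 0.00013). With a mean over the 4 arrays under the 40th percentile of all probe sets (6.33), Nfkbie drops out of any analysis that filters at that level.

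Nfkbia, whose product IkB-alpha is the inhibitor degraded and remade within an NF-kB response, rose by 4 of its 5 probe sets. The brightest, 1420088_at, read 12.06 and 12.04 in wild type and 13.65 and 13.51 in K5-IKKbeta skin, a 2.89-fold rise (log2 fold change 1.53, interval 1.26 to 1.80, adjusted p = 0.00044). Its mean level lay at percentile 98.4 of the wild type arrays and 99.6 of the K5-IKKbeta arrays. Array signals can saturate in that range, and whether these did was not tested. Larger changes were read by the dimmer 1448306_at, 1449731_s_at and 1438157_s_at, but the dimmest, 1420089_at, read the smallest change (0.46). For 1448306_at, whose annotation cites the RefSeq transcript NM_010907, the pools read 9.72 and 9.34 in wild type and 12.14 and 11.92 in K5-IKKbeta skin, a 5.64-fold rise (2.50, interval 2.11 to 2.88, adjusted p = 0.00027). For 1449731_s_at they read 9.95 and 9.93 against 12.20 and 12.18, a 4.77-fold rise (2.25, adjusted p = 9.6e-05). For 1438157_s_at they read 10.98 and 10.71 against 12.97 and 12.86, a 4.20-fold rise (2.07, adjusted p = 0.00026).

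The fifth Nfkbia probe set, 1420089_at, did not pass. It read 7.97 and 7.96 in wild type and 8.24 and 8.61 in K5-IKKbeta skin, with a log2 fold change of 0.46 (interval 0.10 to 0.81, adjusted p = 0.091). It passed without K5-IKKbeta pool 1 (0.65, adjusted p = 0.022), the change was 0.27 without K5-IKKbeta pool 2 (adjusted p = 0.22), and over all alternatives its adjusted p ran from 0.022 to 0.37. The interval of this probe set does not reach those of the other 4, and its annotation, like that of 3 of them, cites no accession. Whether its probes lie in the same part of the transcript was not analysed here.

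Nfkbib, the IkB-beta gene, was the member with the smallest change. Probe set 1421266_s_at read 8.52 and 8.48 in wild type and 8.88 and 8.78 in K5-IKKbeta skin. The pools of the genotypes did not overlap, but the log2 fold change of 0.33 (interval 0.07 to 0.59) missed the threshold (adjusted p = 0.094). It passed where only 1 probe set per gene above the 40th percentile was tested (adjusted p = 0.042) and with probe sets above the 60th percentile (adjusted p = 0.040). Over the alternatives for this probe set the adjusted p ran from 0.040 to 0.37. The second probe set, 1446718_at, lay at the 25th percentile of its arrays, at 5.42 and 5.29 in wild type and 5.38 and 5.30 in K5-IKKbeta skin, and its groups overlapped (-0.02, interval -0.29 to 0.25, adjusted p = 0.95).

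Nfkbiz, the nuclear IkB gene, rose moderately. Its brightest probe set, 1417483_at, read 8.98 and 9.08 in wild type and 9.94 and 9.81 in K5-IKKbeta skin, a 1.79-fold rise (log2 fold change 0.84, interval 0.57 to 1.12, adjusted p = 0.0043), and missed the threshold without wild type pool 1 (adjusted p = 0.058, range over alternatives 0.0011 to 0.15). For 1457404_at the readings were 7.86 and 7.72 against 8.59 and 8.54 (0.77, adjusted p = 0.0056), which did not pass without wild type pool 2 (adjusted p = 0.074, range over alternatives 0.0025 to 0.15). The third, 1448728_a_at, read 8.07 and 8.05 in wild type and 9.01 and 8.45 in K5-IKKbeta skin (0.67, interval 0.22 to 1.13, adjusted p = 0.058). That gap of 0.56 between the K5-IKKbeta pools was the largest gap between pools of a genotype among the 20 probe sets, and the call turns on them. Without K5-IKKbeta pool 2 the probe set passed (0.96, adjusted p = 0.0053), and without K5-IKKbeta pool 1 it did not (0.39, adjusted p = 0.099), with a range over alternatives of 0.0053 to 0.38.

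Of the genes for deubiquitinating enzymes, Tnfaip3 showed the larger change. Probe set 1433699_at read 8.66 and 8.58 in wild type and 11.30 and 11.07 in K5-IKKbeta skin, a 5.92-fold rise (log2 fold change 2.57, interval 2.27 to 2.86, adjusted p = 0.00011). The dimmer 1450829_at read 7.10 and 6.66 in wild type and 8.35 and 8.52 in K5-IKKbeta skin, a 2.94-fold rise (1.56, interval 1.16 to 1.96, adjusted p = 0.0019). Both probe sets separated the genotypes, while their intervals do not overlap, so the size of the rise depends on the probe set.

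Cyld rose by 3 of its 4 probe sets, all by a similar amount. Probe set 1429618_at read 8.58 and 8.79 in wild type and 9.56 and 9.49 in K5-IKKbeta skin, a 1.79-fold rise (log2 fold change 0.84, interval 0.55 to 1.13, adjusted p = 0.0057). Probe set 1429201_at read 7.44 and 7.60 against 8.32 and 8.33 (0.80, adjusted p = 0.0052), and 1429617_at read 7.03 and 7.15 against 8.05 and 7.96 (0.92, interval 0.65 to 1.19, adjusted p = 0.0029). Without wild type pool 1 the first pair missed the threshold (adjusted p = 0.066 for each, ranges over alternatives 0.0017 to 0.18 and 0.0025 to 0.15), and 1429617_at kept its call. The dimmest, 1445213_at, read 6.23 and 6.02 in wild type and 6.38 and 6.01 in K5-IKKbeta skin, with overlapping groups (0.07, interval -0.31 to 0.45, adjusted p = 0.83).

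The A20 partner genes each had 1 probe set. Tnip1 (1427689_a_at) read 9.72 and 9.79 in wild type and 11.26 and 11.05 in K5-IKKbeta skin, a 2.64-fold rise (log2 fold change 1.40, interval 1.11 to 1.69, adjusted p = 0.00088). Tnip2 (1419488_at) read 7.37 and 7.29 in wild type and 7.77 and 7.88 in K5-IKKbeta skin, a 1.41-fold rise (0.49, interval 0.22 to 0.76, adjusted p = 0.029). The 2 intervals do not overlap. Tnip2 was the least stable call among the 7 genes, lost without wild type pool 1, without wild type pool 2 and without K5-IKKbeta pool 2. It was also lost with no moderation (adjusted p = 0.18). By probe set its change ran from 0.43 to 0.55 over the alternatives. In the fits by gene its adjusted p was 0.012 (1 probe set per gene above the 40th percentile) and 0.015 (mean of all probe sets).

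**Figure D3:**
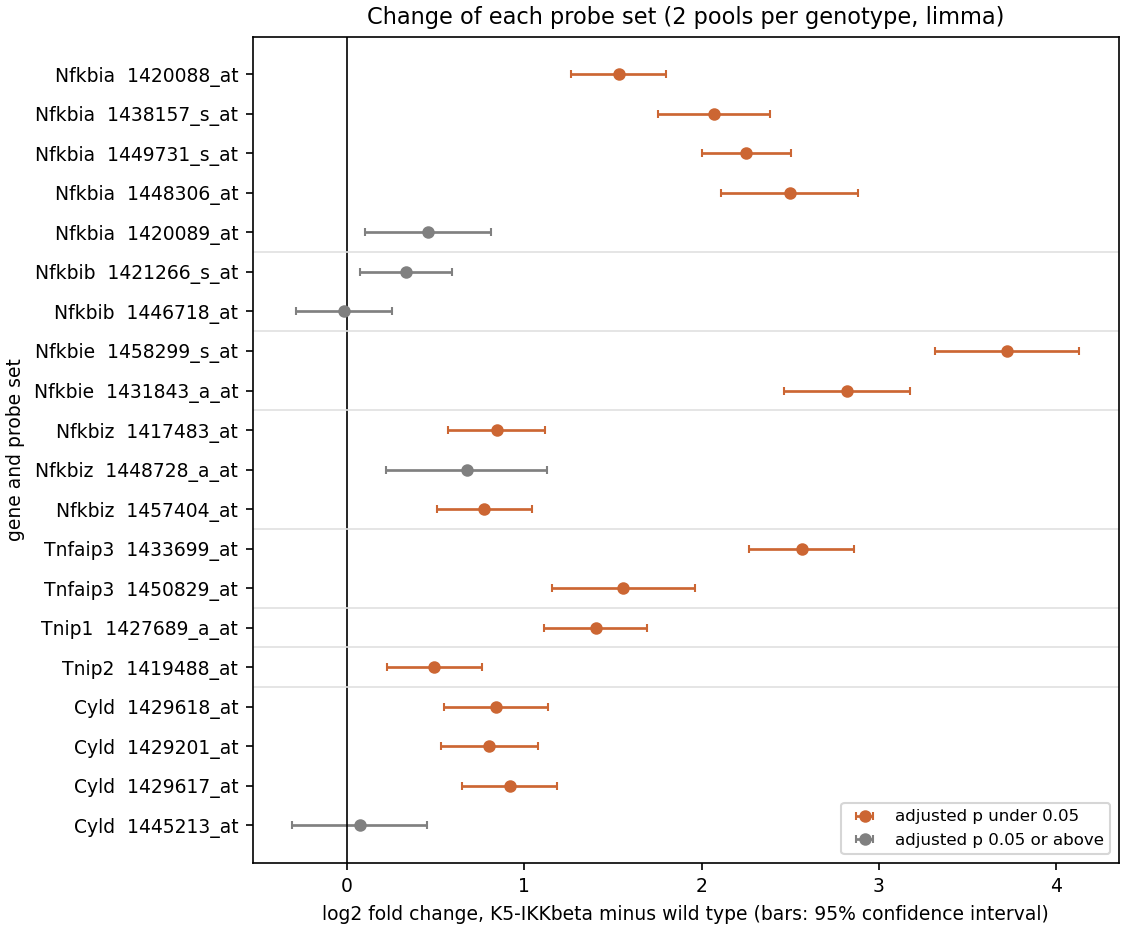
Log2 fold change, K5-IKKbeta minus wild type, of the 20 probe sets with 95% confidence intervals (2 pools per genotype, limma). Orange marks passed the adjusted p threshold of 0.05 and grey marks did not. Nfkbie, Nfkbia and Tnfaip3 hold all fitted changes of 1.53 or more (for Nfkbie the wild type readings lie below the 25th percentile), and the 5 grey marks belong to Nfkbia, Nfkbib, Nfkbiz and Cyld.

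Among the 7 genes read above the floor in both genotypes, the change of the brightest probe set was 2.57 for Tnfaip3, 1.53 for Nfkbia, 1.40 for Tnip1, 0.84 for Nfkbiz and for Cyld, 0.49 for Tnip2 and 0.33 for Nfkbib. Nfkbie has only lower bounds (log2 2.76 and 2.11 by its 2 probe sets), so its place relative to Tnfaip3 is not settled. The intervals of Tnfaip3 and Nfkbia do not overlap, whereas from Nfkbia downwards each interval overlaps that of the next gene. When the probe sets of each gene were averaged, Tnfaip3 (2.06) and Nfkbia (1.76) still led these 7. The place of Nfkbia below Tnfaip3 rests on the probe sets used. Nfkbia 1448306_at (2.50) lay just below Tnfaip3 1433699_at (2.57) but above Tnfaip3 1450829_at (1.56). Differences between genes were not tested. Of the 7 genes with a promoter window, the 5 with a kappaB consensus match had the 5 largest changes of these 7, with Nfkbie at its lower bound too, a description of few genes without a test.

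Other genes of the pathway were described from lists by their brightest probe set, by which 14.3% of all genes were called higher. Among NF-kB subunits, 3 of 4 rose and none fell (median log2 fold change 1.11). Relb, the partner of p52 in the alternative pathway, changed by 2.73 (adjusted p = 4.5e-05), Nfkb2, the precursor of p52, by 1.73 (adjusted p = 0.00049) and Rela, the main activating subunit, by 0.49 (adjusted p = 0.034). The call of Rela was lost under another quantile normalization (adjusted p = 0.067) and without wild type pool 1 (0.17), wild type pool 2 (0.22) or K5-IKKbeta pool 1 (0.096). Among IKK and upstream kinases, 3 of 10 rose and none fell (median 0.12), namely the IKK-related kinases Ikbke (1.66, adjusted p = 0.00078) and Tbk1 (0.64, adjusted p = 0.018) and Ikbkb itself (0.50, adjusted p = 0.045). Without wild type pool 1 only Ikbke kept its call, and the same held without wild type pool 2. The brightest Ikbkb probe set, 1426207_at, also missed the threshold without K5-IKKbeta pool 1. It missed it too under another quantile normalization (adjusted p = 0.060) and with median centring (0.054). Other Ikbkb probe sets changed by 2.24 (1454184_a_at, adjusted p = 0.00010) and 0.47 (1426333_a_at, 0.029). Not called were 1445141_at (0.14, adjusted p = 0.45) and 1432275_at (-0.15, adjusted p = 0.53).

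The genes listed for the degradation of IkB proteins, which include no proteasome subunit, showed little change at the RNA level. Of these 9 genes, 1 rose and none fell, with a median of -0.06. That gene was Btrc, the F-box protein that binds phosphorylated IkB, at 0.53 (adjusted p = 0.018), and its call was lost without wild type pool 1 and without wild type pool 2 (adjusted p = 0.14 each). Among the listed ubiquitin enzymes and adaptors that work with A20, the ABIN proteins and CYLD, 4 of 12 rose and none fell (median 0.25). Birc3 and Traf1 of this list are also counted among the NF-kB target genes below. The ligases Birc3 and Birc2 changed by 1.77 (adjusted p = 0.00024) and 1.17 (adjusted p = 0.0018), and the receptor adaptors Traf2 and Traf5 by 0.92 (adjusted p = 0.0041) and 0.90 (adjusted p = 0.0051). Without wild type pool 1 only the Birc genes were called (Traf2 adjusted p = 0.054, Traf5 0.062).

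Of 17 further genes listed as IkB-like or inhibitory, not all of which encode inhibitors, 6 rose and none fell (median 0.27). Usp18, a protease that removes the ubiquitin-like ISG15, changed by 2.05 (adjusted p = 0.0056), Bcl3, a nuclear IkB-family co-activator, by 1.64 (adjusted p = 0.00059), Socs1, an inhibitor of cytokine receptor signalling, by 0.85 (adjusted p = 0.019) and Zc3h12a, an RNase that degrades inflammatory transcripts, by 0.73 (adjusted p = 0.012). Nfkbid, another nuclear IkB gene, did not pass (0.59, adjusted p = 0.088). It is named here as the closest relative of Nfkbiz, after its value was seen. Only Usp18 and Bcl3 kept their calls without wild type pool 1, and likewise without wild type pool 2. Of 24 NF-kB target genes outside the inhibitors 14 rose and none fell (median 0.70, or 0.55 with genes below the floor in 1 genotype at their lower bound), among them the chemokines Cxcl10 (3.28, adjusted p = 0.00019) and Ccl2 (3.13, adjusted p = 4.7e-05), the iron-binding protein Lcn2 (3.16, adjusted p = 0.00011) and the adhesion molecule Icam1 (3.07, adjusted p = 0.00020). The medians of these lists lay between -0.06 and 1.11, beside 1.12 for the 8 inhibitors. None of the lists held a gene called lower at the threshold, where 6.64% of all genes were. The members and lists were chosen with earlier results of these data known, so their counts describe the genes and are no independent support.

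**Figure D4:**
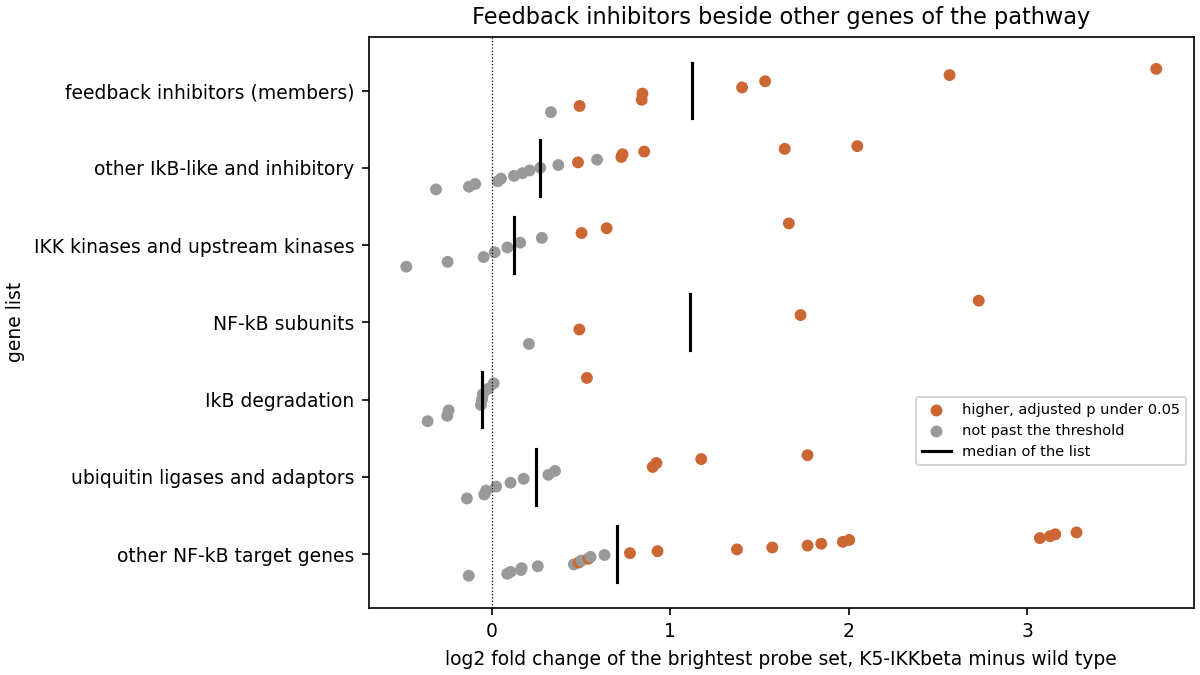
Log2 fold change, K5-IKKbeta minus wild type, of the brightest probe set of each gene, for the 8 feedback inhibitors and 6 lists of pathway genes. Orange marks were higher at an adjusted p under 0.05, grey marks did not pass, and black bars are list medians, which run from -0.06 for IkB degradation to 1.12 for the inhibitors.

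Cell types other than keratinocytes can express these inhibitors. In whole skin a change in the number of cells of a type cannot be told apart from a change in RNA per cell. Markers were counted by their brightest probe set, by which 14.3% of all genes were called higher and 6.64% lower. Of 11 markers of macrophages and monocytes 10 rose and none fell, and their mean log2 level was 8.33 and 8.27 in the wild type pools and 9.26 and 9.47 in the K5-IKKbeta pools. Markers of Langerhans and dendritic cells rose in 5 of 7 (mean 7.10 and 7.01 against 8.11 and 7.90), mast cell markers in 4 of 6 (7.89 and 7.95 against 8.65 and 8.97) and T cell markers in 2 of 7 (6.69 and 6.58 against 7.16 and 6.94). Of 5 neutrophil markers 1 rose, S100a9 (2.46), and the median change of the 5 was 0.06. Their mean was 6.82 and 6.83 against 7.43 and 7.30, with S100a9 included. Of 3 B cell markers none passed. B cell markers averaged 5.49 and 5.35 against 5.61 and 5.34. Both wild type arrays lay below the 25th percentile for 1 Langerhans and dendritic marker, 2 T cell markers, 1 B cell marker and 1 mast cell marker.

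Structural cell types also differed. All 10 markers of hair shaft and inner root sheath fell, with a mean of 13.85 and 13.87 in wild type and 9.46 and 10.08 in K5-IKKbeta skin. Basal keratinocyte markers rose in 2 of 7 (11.59 and 11.55 against 12.11 and 11.87), the calls of Krt5 (0.49, adjusted p = 0.049) and Krt14 (0.53, adjusted p = 0.0497), and the count depends on the setting. It was 0 with arrays centred on their medians, with no moderation, or without wild type pool 1, wild type pool 2 or K5-IKKbeta pool 1. It was 4 with probe sets above the 40th percentile and 5 with those above the 60th percentile, with eBayes trend and robust settings, or without K5-IKKbeta pool 2. Of 7 suprabasal markers 3 rose and 4 fell (12.16 and 12.24 against 12.08 and 11.92). Markers rose in 3 of 6 for fibroblasts (12.85 and 12.72 against 13.32 and 13.51), 2 of 5 for endothelium (7.48 and 7.44 against 8.01 and 8.01), 4 of 5 for muscle (12.45 and 12.30 against 13.43 and 13.15) and 1 of 3 for adipocytes (10.87 and 10.59 against 10.91 and 10.95). Without wild type pool 1 the counts of higher markers were 1 for T cells, 1 for fibroblasts, 2 for muscle, 0 for adipocytes and 1 for suprabasal cells, and without wild type pool 2 they were the same for these lists and 1 for endothelium. The part of these shifts in the values of the inhibitors was not tested.

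The genes nearest to each member in pattern were listed by the smallest Euclidean distance between mean-centred log2 values over the 4 arrays, among 13067 genes with a probe set above the 40th percentile. With 4 arrays in 2 groups this likeness is mostly one of the size of the change. None is given for Nfkbie, since its wild type readings lay below the floor. Tnfaip3 lay nearest to Acacb (distance 0.11), an acetyl-CoA carboxylase, and S100a9 (0.12), a calcium-binding protein of myeloid cells and inflamed keratinocytes. Nfkbia by its brightest probe set lay nearest to the oxytocin receptor gene Oxtr (0.051) and the adipocyte gene Adig (0.083), and Tnip1 to Lrrc4 (0.068) and the class I gene H2-K1 (0.070). The nearest to Nfkbiz were Aida (0.020) and Mid1ip1 (0.036), to Cyld were Cdca7l (0.022) and the galectin Lgals8 (0.034), and to Tnip2 were Sh3pxd2b (0.029) and Spdl1 (0.032).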

How the data were processed

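Biotin-labelled cRNA of pooled skin RNA was hybridised to 4 arrays, 2 per genotype. The submitters' processing notes name RMA, without a version or a log base, as the source of the deposited values. This method subtracts background, brings the probe distributions of the arrays together by quantiles and gives 1 value per probe set. The range of 2.65 to 14.7 is that of log2 values, and the deposited log2 values were used as they stand. No source used here gives a scan date or batch, and precision is limited by the number of arrays.

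Gene names came from the platform annotation: 34958 had 1 symbol, 932 several and 9211 none. Of the first, 34754 matched the RefSeq gene table of GRCm38.p6 by identifier and 0 symbols changed. No probe set with several symbols held a member. Names ending in _s_at mark probe sets that several transcripts share.

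All 45101 probe sets were fitted with limma 3.58.1 in R 4.3.3 (group as the only term, two-sided, 4.46 prior and 2 residual degrees of freedom). In all, 4696 were called higher and 2654 lower, and 13115 had an unadjusted p under 0.05. The brightest probe set stood for its gene in lists.

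Named were all members, Ikbkb, up to 4 genes per list with the largest change past the threshold (2 with the smallest p where none passed) and the 2 nearest in pattern to each called member but Nfkbie. Of 81 different symbols in the pathway lists, 74 were measured; the others, Nfkb1 and Chuk among them, were not analysed here. Members, lists and alternatives were chosen with earlier results of these data known.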

Additional observations from a re-analysis of the deposited data

How the results depend on the processing

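Alternatives were filters at the 40th and 60th percentile, 1 probe set or the mean of all per gene, no _s_at or _x_at probe sets, another quantile normalization, median centring, eBayes with trend and robust settings, no moderation, the replicate number as a block, and each array left out. Over 226 values of single member probe sets under these settings, 193 kept direction and side of the threshold, 22 lost the call, 6 gained it and 5 turned sign. Those that turned were never called: Nfkbib 1446718_at gave 0.015 under quantile normalization and -0.086 to 0.051 with an array left out, and Cyld 1445213_at gave -0.12 to 0.26 with an array left out. With no moderation, 0 of 20 member probe sets and 0 of 8 genes were called higher, and of all probe sets 11 were higher and 8 lower; each variance then rests on 2 residual degrees of freedom. With an array left out, 11 to 16 member probe sets and 4 to 7 genes were called higher, and of all probe sets 1648 to 4416 higher and 840 to 2698 lower, the fewest without a wild type pool, where the lone pool is assumed to vary like the other group. With the replicate number as a block 15 member probe sets and 7 genes were called, as without it; same-numbered pools had a correlation of 0.25 of their deviations, but the labels do not say that numbers mark a shared batch. Among the named pathway genes the block ended the calls of Ikbkb (adjusted p = 0.077) and Socs1 (0.057). Quantile normalization and median centring also left 15 and 7, and no call of a member was lost there. Without _s_at and _x_at probe sets, 12 of 16 were called. Filters on the mean level removed both Nfkbie probe sets, whose wild type level is low.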

Other observations

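K5-IKKbeta pool 1 lay above pool 2 for 16 of the 20 probe sets, with a median difference of 0.10 on the log2 scale, where that of all probe sets was 0.02. Wild type pool 1 lay above pool 2 for 14, with a median difference of 0.03, where that of all probe sets was -0.01. Several of the 20 probe sets read the same gene, and the matching shares of all probe sets were not counted. The largest gap between wild type pools was 0.44, in Tnfaip3 1450829_at, and between K5-IKKbeta pools 0.56, in Nfkbiz 1448728_a_at, whose change between genotypes was 0.67.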
